A study of Mus musculus with 8 samples.

Results

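Transcripts of 8 genes of the LXR-RXR pathway were followed in the spleen of mice given all-trans-retinoic acid (tRA). The genes are Abca1, Abcg1, Nr1h2, Nr1h3, Mylip, Srebf1, Lpcat3 and Apoe. They were chosen by their place in the LXR-RXR pathway, with results of the contrast of tRA and control mice in these same libraries already known. The set of 8 is therefore described here without a test of the set, and the values of each gene come from a fit over all genes. They are 8 of the 51826 genes in the count table, and 8 of 8 were among the 16484 genes that passed a filter on low counts.

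RNA was sequenced from total splenocytes of 8 female Balb/c mice, harvested at 3 months of age. In the study's methods, 4 mice took tRA in canola oil by mouth every day from weaning, at 1 mg/kg body weight, and 4 control mice took canola oil alone. The sample labels give the same 1 mg/kg tRA text for both groups, and the grouping follows the sample titles. None of the mice had received pristane, the oil used elsewhere in the study to induce lupus. Red blood cells were lysed when the splenocytes were prepared, and no cell type was sorted, so each value is an average over B cells, T cells, macrophages and the other cells of the spleen. The total count on genes per mouse was 37539631, 31833853, 35924683 and 30919272 in control mice 1 to 4, and 33755595, 31810417, 35165876 and 32042754 in tRA mice 1 to 4. The totals of both groups span a similar range. Mice of the same group differed from each other by more than counting error, the chi-square statistic over genes divided by its degrees of freedom lying between 14.1 and 72.5 for each pair.

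The liver X receptors are nuclear receptors that bind oxysterols, which are oxidised forms of cholesterol, and that act on DNA as a pair with a retinoid X receptor (RXR). Loaded with ligand, the pair turns on genes that carry cholesterol out of the cell, limit its uptake and remodel membrane lipids, a program best known from macrophages. RXR is also the partner of the retinoic acid receptors, for which tRA is the ligand, so that both pathways draw on the same partner.

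Abca1 and Abcg1 encode the ABC transporters that pass cholesterol and phospholipid to lipid-poor apolipoprotein A-I and to HDL particles. Abca1 lies on chromosome 4, from 53030787 to 53159895 on the minus strand, and Abcg1 on chromosome 17, from 31057675 to 31117988 on the plus strand. Levels are given as CPM, the counts of a gene scaled to a common library size by TMM. Abca1 stood at 112, 87.3, 66.6 and 86.1 CPM in control mice 1 to 4, and at 106, 115, 87.4 and 123 CPM in tRA mice 1 to 4. The groups overlapped through control mouse 1, which was higher than tRA mice 1 and 3, while 14 of the 16 pairs of a tRA and a control mouse had the tRA mouse higher. Abca1 had the widest spread between control mice of the 8 genes, with a coefficient of variation of 21.3%, while counting error alone gives 1.83%, so counting error is a small part of the spread. The means were 88.1 ± 18.7 CPM in control mice and 108 ± 15.2 CPM in tRA mice (SD, n = 4 each). The log2 fold change of tRA over control was 0.29 ± 0.148 (SE), with a 95% interval from -0.036 to 0.62. This was the largest estimate of the 8 genes, and it ran from 0.17 to 0.43 when 1 mouse was left out.

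Abcg1 stood at 84.8, 100, 77.9 and 84.1 CPM in control mice 1 to 4, and at 93.9, 102, 95.8 and 97.3 CPM in tRA mice 1 to 4. The groups overlapped through control mouse 2, which was higher than tRA mice 1, 3 and 4, and the other control mice lay below each tRA mouse. The tRA mice were closer together than the control mice, with coefficients of variation of 3.73% and 10.8%. The log2 fold change of Abcg1 was 0.17 ± 0.0797 (SE), with a 95% interval from -0.0093 to 0.34, and ran from 0.11 to 0.24 when 1 mouse was left out. The ratio of Abca1 to Abcg1, both per kb of exon, was 0.718 ± 0.153 in control mice and 0.78 ± 0.101 in tRA mice (SD, n = 4 each), and its ranges overlapped.

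Nr1h2 and Nr1h3 encode the receptors themselves, LXRβ, which is present in most tissues, and LXRα, which is found mainly in liver, fat and macrophages. Nr1h2 lies on chromosome 7, from 44549616 to 44553951, and Nr1h3 on chromosome 2, from 91184061 to 91202834, both on the minus strand. Nr1h2 stood at 171, 175, 157 and 167 CPM in control mice 1 to 4, and at 178, 159, 154 and 159 CPM in tRA mice 1 to 4. Nr1h3 stood at 9.23, 11.4, 10.2 and 7.56 CPM in control mice 1 to 4, and at 9.35, 8.85, 11.9 and 7.12 CPM in tRA mice 1 to 4. For both receptors the groups overlapped across most of their range, and for Nr1h3 the highest and the lowest mouse were both tRA mice. The log2 fold change was -0.043 ± 0.0669 (SE) for Nr1h2, with a 95% interval from -0.19 to 0.10. It was -0.042 ± 0.172 (SE) for Nr1h3, with a 95% interval from -0.42 to 0.34, so that a change of the size estimated for Abca1 lies within the interval of Nr1h3 and outside that of Nr1h2. Nr1h3 had the lowest counts of the 8 genes, between 233 and 439 per library, and counting error alone gives it a coefficient of variation of 5.56% among control mice, against 16.8% observed. Its annotated exons share 34 bp with those of Gm13783, a transcript on the same strand with a mean count of 11.

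Mylip, Srebf1 and Lpcat3 are LXR targets that act on uptake, synthesis and membrane composition. Mylip encodes IDOL, a ubiquitin ligase that marks lipoprotein receptors for degradation, Srebf1 encodes the transcription factor SREBP1 of fatty acid synthesis, and Lpcat3 encodes an acyltransferase that puts polyunsaturated chains into phospholipids. Mylip (chromosome 13, from 45389742 to 45412022, plus strand) stood at 130, 153, 134 and 125 CPM in control mice 1 to 4, and at 147, 164, 159 and 143 CPM in tRA mice 1 to 4. Control mouse 2 was higher than tRA mice 1 and 4, and the other control mice lay below each tRA mouse, which is the arrangement seen for Abcg1 with the same control mouse. The log2 fold change of Mylip was 0.18 ± 0.0784 (SE), with a 95% interval from 0.0026 to 0.35.

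Srebf1 (chromosome 11, from 60199089 to 60222581, minus strand) stood at 103, 114, 105 and 103 CPM in control mice 1 to 4, and at 111, 104, 105 and 107 CPM in tRA mice 1 to 4. It was the gene with the estimate closest to 0 among the 8, with a log2 fold change of 0.0028 ± 0.06 (SE) and a 95% interval from -0.13 to 0.14. Control mouse 2 was again the highest of its group, and every tRA mouse lay within the range of the control mice. Lpcat3 (chromosome 6, from 124663027 to 124704418, plus strand) stood at 41.5, 36.9, 36.1 and 40.9 CPM in control mice 1 to 4, and at 43.7, 38.8, 45.9 and 41.1 CPM in tRA mice 1 to 4. The groups overlapped, with 13 of 16 pairs having the tRA mouse higher, and the log2 fold change was 0.12 ± 0.0796 (SE) with a 95% interval from -0.051 to 0.30. The sources do not state whether the counting used the strand, so reads of genes on opposite strands may not be separable. Lpcat3 shares 334 bp of its 3268 bp of exon with Emg1 on the other strand, whose mean count of 3317 exceeds the 1367 of Lpcat3, and Srebf1 shares 109 bp of its 5634 bp with Rai1, also on the other strand. The values of Lpcat3 and Srebf1 are uncertain to that extent.

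Apoe encodes apolipoprotein E, a carrier of lipid that macrophages secrete. It lies on chromosome 7, from 19696109 to 19699188 on the minus strand. Apoe stood at 357, 374, 461 and 389 CPM in control mice 1 to 4, and at 353, 405, 415 and 329 CPM in tRA mice 1 to 4. The highest value was that of control mouse 3 and the lowest that of tRA mouse 4, with the remaining mice of both groups between them. The log2 fold change was -0.073 ± 0.103 (SE), with a 95% interval from -0.30 to 0.15. In total, 5 of the 8 genes had a positive estimate and 3 a negative one, with a median log2 fold change of 0.064. The signs of Srebf1, Nr1h3 and Apoe depended on the mouse left out. Over the genes tested, 8290 had a positive and 8194 a negative estimate, with a median of 0.0014.

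**Figure D1:**
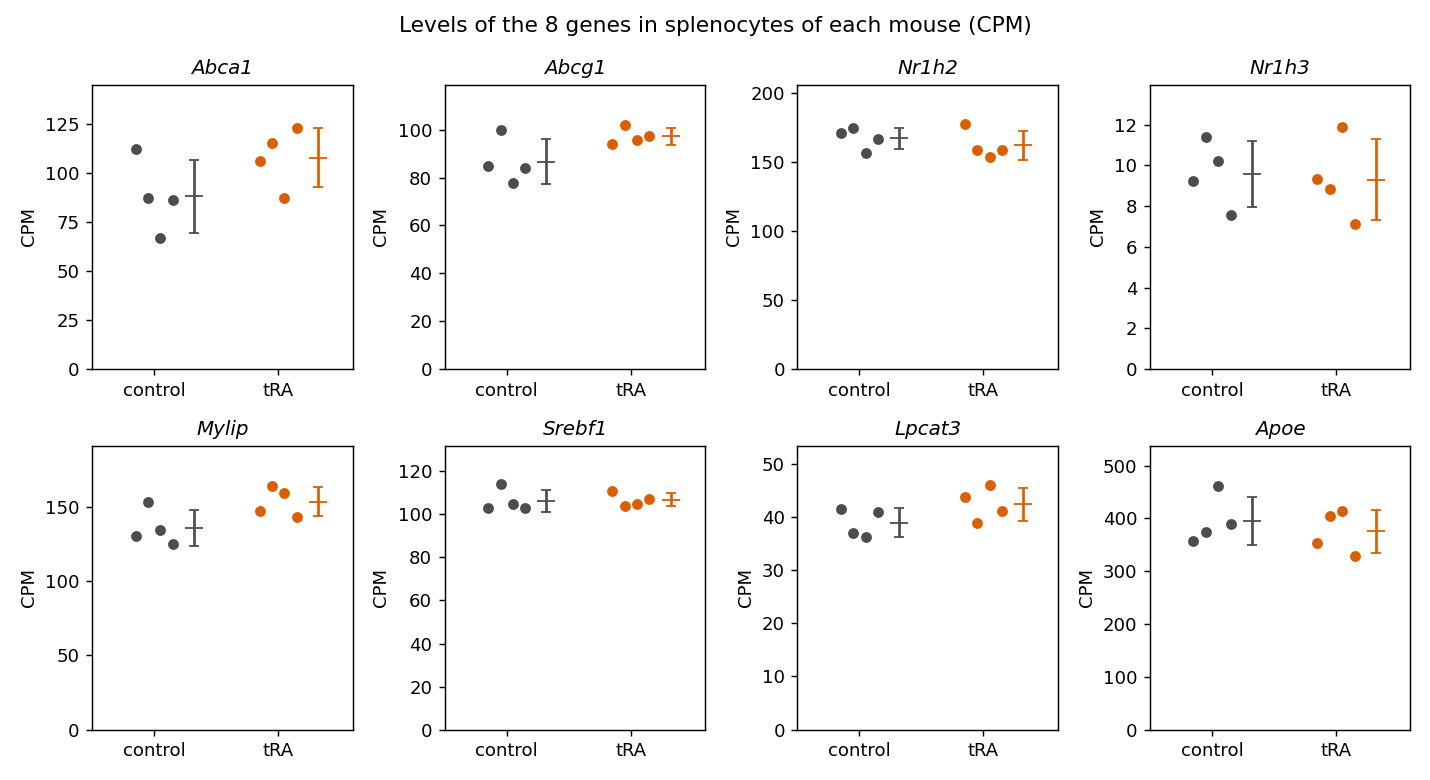
CPM (y axis, from 0) of the 8 genes in each of the 4 control mice and 4 tRA mice (points), with the mean and SD beside them. The groups overlap for each gene. Abca1, Abcg1 and Mylip overlap through 1 control mouse each, and Abca1 spans 66.6 to 112 CPM in control and 87.4 to 123 CPM in tRA mice.

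**Figure D2:**
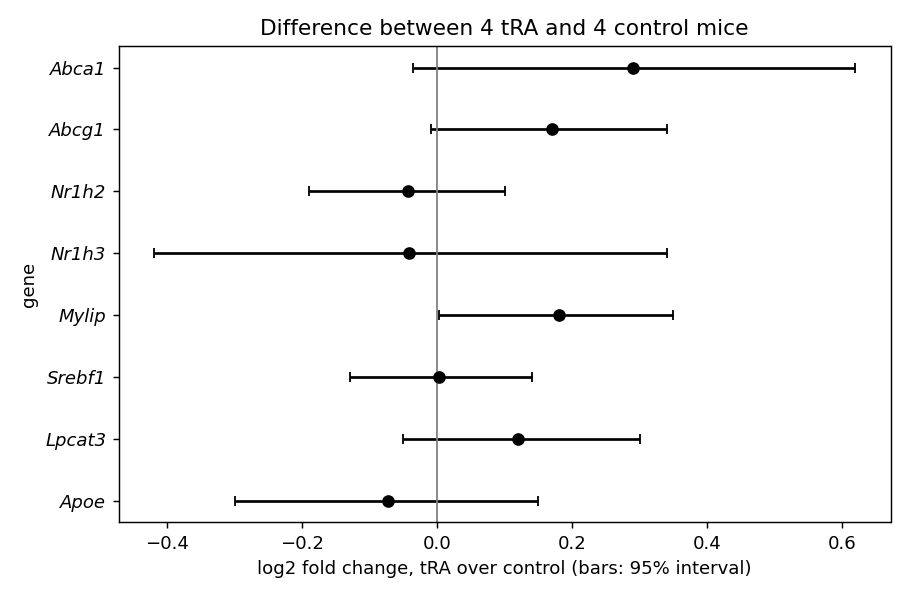
Log2 fold change of tRA over control (x axis) for each of the 8 genes (y axis), with bars for the 95% interval from edgeR. The estimates run from -0.073 for Apoe to 0.29 for Abca1, and the interval of Mylip alone lies above 0.

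Over all genes, the quasi-likelihood test of edgeR, adjusted by Benjamini-Hochberg, gave 0 genes of 16484 (0%) with an FDR under 0.1, and 0 of the 8 genes. The FDR was 0.757 for Mylip, 0.776 for Abcg1 and 0.778 for Abca1, and the lowest FDR of any gene was 0.135. The unadjusted p was under 0.05 for 1070 genes (6.49%), and for 1 of the 8, Mylip. All tRA mice lay above all control mice for 315 genes (1.91%), and for 0 of the 8. All tRA mice lay below all control mice for 269 genes (1.63%), and for 0 of the 8. DESeq2, the package named in the study's methods, gave 27 genes of 13625 (0.198%) with an FDR under 0.1, and 0 of the 8. These p-values measure a difference against the spread between mice. Since the 8 genes were chosen with this contrast known, their place in these counts is a description and supports nothing further.

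Levels of different genes were compared per kb of annotated exon. In control mice Apoe stood highest, at 185 ± 21.4 CPM per kb (SD, n = 4), with its range clear of the next gene. Nr1h2 followed at 49.9 ± 2.38 and Mylip at 42 ± 3.82 CPM per kb. The ranges of Nr1h2 and Mylip overlapped, so with this length their order is not separated by the spread between mice. With the longest transcript as length instead, Nr1h2 stood at 83.8 and Mylip at 44.3 CPM per kb, so the overlap depends on the length used. Srebf1 stood apart below them at 18.9 ± 0.948 CPM per kb. Lpcat3 and Abcg1 both stood at 11.9 CPM per kb, with SDs of 0.844 and 1.29, and the range of Abcg1 overlapped that of Abca1, at 8.5 ± 1.81. That overlap also depends on the length, as Abcg1 stood at 14.9 and Abca1 at 8.58 CPM per kb of the longest transcript. Nr1h3 was lowest, at 3.81 ± 0.642 CPM per kb, with its range clear of Abca1. In tRA mice the same order held except that Abcg1, at 13.3 ± 0.498, came before Lpcat3, at 13 ± 0.949 CPM per kb, with overlapping ranges. Mylip stood at 47.4 ± 3.06 and Nr1h2 at 48.5 ± 3.13 CPM per kb in tRA mice, again with overlapping ranges. With the longest transcript as length instead, Mylip stood at 50 and Nr1h2 at 81.3 CPM per kb in tRA mice.

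The exon length of Nr1h2 and Nr1h3 allows the receptors to be set against each other within each mouse. LXRβ transcripts were more abundant than LXRα transcripts in each of the 8 mice, with a ratio per kb of 13.4 ± 2.39 in control mice (from 11.5 to 16.6) and 13.6 ± 2.92 in tRA mice (from 9.71 to 16.8).

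**Figure D3:**
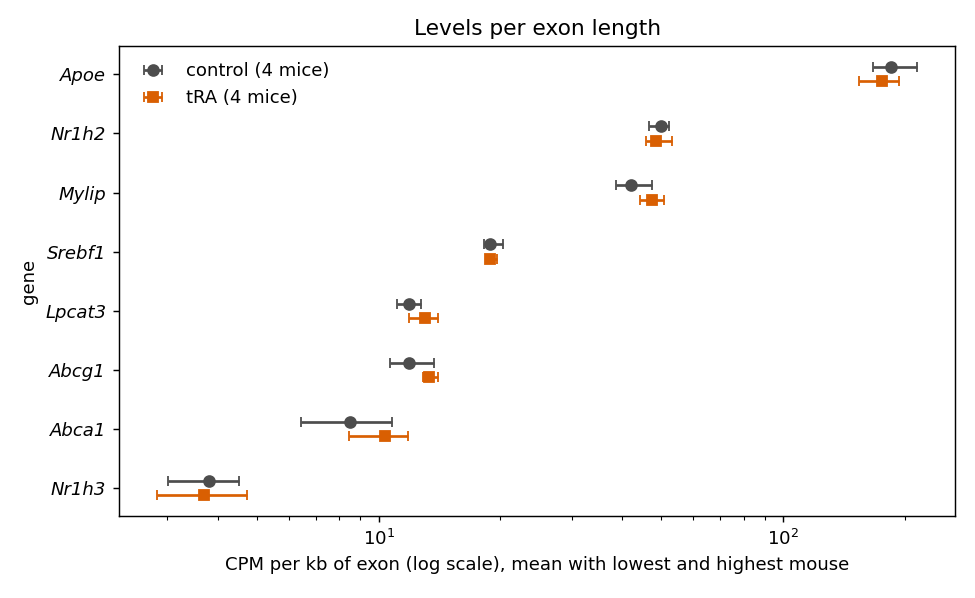
CPM per kb of exon (x axis, log scale) of the 8 genes (y axis) in control and tRA mice, with points for the mean of 4 mice and bars from the lowest to the highest mouse. Apoe lies highest, at 185 in control and 176 in tRA mice, and Nr1h3 lowest, at 3.81 and 3.7.

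The partners and coregulators of LXR are the RXRs and the complexes that hold LXR targets silent or switch them on. Of 15 such genes, 14 were tested, and 0 had an FDR under 0.1 in either direction. The estimates were positive for 11 and negative for 3, with a median log2 fold change of 0.089, which ran from -0.015 to 0.12 when 1 mouse was left out. Tbl1x, a subunit of the NCoR corepressor complex, stood at 87.9 ± 5.74 CPM in control mice and 100 ± 5.18 in tRA mice, a log2 fold change of 0.19 ± 0.0689 (SE), and Gps2, another subunit of that complex, stood at 143 ± 4.65 and 154 ± 5.82 CPM, a log2 fold change of 0.11 ± 0.0579 (SE). For both, all tRA mice lay above all control mice, as they did for 1.91% of all genes. Hdac3 and Tbl1xr1, of the same complex, had negative estimates, at -0.11 ± 0.0773 and -0.10 ± 0.0879 (log2 fold change ± SE), with overlapping groups. Of the RXR genes, the log2 fold change was 0.012 ± 0.111 (SE) for Rxra and -0.041 ± 0.0613 (SE) for Rxrb, and Rxrg was too low to be tested. Ncoa3, a coactivator, had the highest CPM of this list, not scaled for length, at 316 ± 39.3 CPM in control and 333 ± 16.3 CPM in tRA mice.

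On the ligand side of the pathway, of 7 genes that make or break down oxysterols, 4 were tested and 0 had an FDR under 0.1, with a median log2 fold change of -0.025, whose sign changed with the mouse left out. Ch25h, which makes 25-hydroxycholesterol in activated macrophages, stood at 0.126 ± 0.111 CPM in control mice and 0.121 ± 0.144 CPM in tRA mice, and Cyp7b1 and Hsd3b7 were also too low to be tested. Cyp27a1, the mitochondrial sterol hydroxylase, had the highest CPM, at 34.4 ± 3.82 CPM in control and 33 ± 1.34 CPM in tRA mice. Sult2b1, whose product sulfates oxysterols, had a log2 fold change of 0.17 ± 0.344 (SE) at 0.468 ± 0.116 CPM in control mice.

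Beyond the 8 genes, 18 other LXR targets were listed. Of these, 14 were tested and 0 had an FDR under 0.1, with 6 positive and 8 negative estimates and a median log2 fold change of -0.032, which ran from -0.079 to 0.061 when 1 mouse was left out. Fads2, Cd5l and Lpl had the largest estimates, at -0.33 ± 0.361, -0.29 ± 0.186 and -0.26 ± 0.235 (log2 fold change ± SE), and the groups overlapped for each. Scd1, the stearoyl-CoA desaturase, had the highest CPM, at 756 ± 83.6 CPM in control and 724 ± 38.6 CPM in tRA mice. Fasn and Acaca, the enzymes of fatty acid synthesis downstream of SREBP1, had log2 fold changes of 0.03 ± 0.0958 and 0.00086 ± 0.0956 (SE). The estimates of the whole list ran from -0.33 to 0.17. Abcg5, Abcg8, Mlxipl and Apoc2 were too low to be tested.

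Downstream of Mylip, the receptors that IDOL marks for degradation are regulated at the level of protein, which was not measured here. Of 2 such genes, Lrp8 had a log2 fold change of 0.15 ± 0.127 (SE) and Vldlr was too low to be tested. The cholesterol synthesis genes driven by SREBP2 are the counterpart of the LXR program, and were listed with Srebf2 itself and regulators of SREBP2 such as Insig1. Of the 12 genes of this list, all tested, 4 had a positive and 8 a negative estimate, and 0 had an FDR under 0.1. The median log2 fold change was -0.081 (from -0.10 to -0.035 when 1 mouse was left out). The largest estimates were those of Idi1 at -0.30 ± 0.188, Insig1 at -0.25 ± 0.172, Cyp51 at -0.17 ± 0.0985 and Mvd at -0.11 ± 0.0938 (log2 fold change ± SE).

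Genes that tRA is known to induce through its own receptors were set beside the LXR targets. Of 9 such genes, 6 were tested and 0 had an FDR under 0.1, with a median log2 fold change of 0.0063, whose sign changed with the mouse left out. Rarb, the retinoic acid receptor whose gene carries a classical response element, stood at 1.41 ± 0.267 CPM in control mice and 1.9 ± 0.263 CPM in tRA mice, with 15 of 16 pairs having the tRA mouse higher and a log2 fold change of 0.43 ± 0.208 (SE). Stra6 had the largest estimate, at -0.52 ± 0.408 (SE), from a level of 0.575 ± 0.339 CPM in control mice. Cyp26a1 and Cyp26b1, the enzymes that break tRA down, were too low to be tested, at 0.177 ± 0.158 and 0.132 ± 0.0661 CPM in control mice.

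In a mixture such as total splenocytes, fewer cells of a type and less RNA per cell cannot be told apart. B and T cell transcripts were abundant, as in spleen, with Cd79a at 1396 ± 110 CPM and Tcf7 at 409 ± 33.6 CPM in control mice, and none of the marker genes was at 0 in all libraries. The T cell markers had mostly positive estimates. Of 9 T cell genes, 8 had a positive and 1 a negative estimate, and 0 had an FDR under 0.1. The median log2 fold change was 0.12, and ran from 0.08 to 0.19 when 1 mouse was left out. The summed level of the 9 T cell genes was 1845, 1798, 1953 and 2100 CPM in control mice 1 to 4. It was 2341, 2032, 1973 and 2012 CPM in tRA mice 1 to 4. The groups overlapped in this sum through control mouse 4, and the highest sum was that of tRA mouse 1.

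The neutrophil genes had mostly negative estimates. Of 9 genes, 8 had a negative estimate, with a median log2 fold change of -0.63, and 6 had an unadjusted p under 0.05, against 6.49% of all genes tested. All tRA mice lay below all control mice for 3 of the 9, against 1.63% of all genes. These were Camp, Ngp and Ltf, at -1.23 ± 0.156, -0.92 ± 0.182 and -0.88 ± 0.191 (log2 fold change ± SE). The list was not uniform, as Mmp8 and Mmp9 stood at -0.11 ± 0.204 and -0.13 ± 0.208. Cxcr2 had the positive estimate, 0.39 ± 0.19. Camp had the lowest FDR of any gene in the main edgeR fit, 0.135. The study lists Camp, Ngp and Ltf among its significant genes, from these same libraries, and this list was chosen with earlier results known. Its counts beside those of all genes are therefore a description and supply no separate evidence. Over all lists beside the 8 genes, 3 genes had an FDR under 0.1 in DESeq2. The count was also 3 with no filter on low counts, and 3 without tRA replicate 4. The summed level of the neutrophil genes was 876, 1151, 1134 and 988 CPM in control mice 1 to 4, and 549, 580, 539 and 894 CPM in tRA mice 1 to 4. tRA mouse 4 lay among the control mice in this sum. The part of neutrophils in the values of the 8 genes was not tested.

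Macrophages, the cells in which the LXR program is best known, were read from 10 red pulp macrophage genes, with 2 positive and 8 negative estimates and a median log2 fold change of -0.079. Their summed level was 820, 1014, 754 and 617 CPM in control mice 1 to 4, and 555, 774, 911 and 703 CPM in tRA mice 1 to 4, with the groups overlapping. The 3 marginal zone macrophage genes were low, with summed levels from 14.3 to 18.6 CPM in control and from 12.2 to 21.2 CPM in tRA mice. The median log2 fold change was 0.27 for these, -0.064 for 6 monocyte genes, -0.11 for 8 conventional dendritic cell genes, -0.049 for 6 NK cell genes, 0.0045 for 7 B cell genes and 0.0017 for 5 tested stromal and endothelial genes of 6. The erythroid genes varied most from mouse to mouse, with sums from 493 to 2400 CPM in control and from 590 to 3548 CPM in tRA mice. Of 7 erythroid genes, 5 had a positive and 2 a negative estimate, with a median log2 fold change of 0.43, which ran from -0.16 to 0.85 when 1 mouse was left out. The medians of the other lists in this paragraph also changed sign with the mouse left out. None of these lists held a gene with an FDR under 0.1 in the main edgeR fit.

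Which of the 8 genes varied together with T cell or macrophage markers was asked across the 8 mice. Values pooled over both groups include the difference between them, and r among deviations from the group means leaves that difference out. With 16 relations and an exact permutation test over all pairings of mice (two-sided), 0 passed an adjusted p under 0.05. Nr1h3 had the highest r with the red pulp macrophage markers, 0.624 (exact permutation p = 0.0958, adjusted p = 0.978), with a Spearman rho of 0.595 (exact permutation p = 0.132, adjusted p = 0.997). Without control mouse 2 and tRA mouse 1, the mice farthest from the median macrophage score, it was 0.866, and among deviations from the group means 0.619. Mylip followed, with an r of 0.418 with the macrophage markers (exact permutation p = 0.305, adjusted p = 0.978) and a rho of 0.429 (exact permutation p = 0.299, adjusted p = 0.997). Without the same 2 mice its r was 0.677, and among deviations from the group means 0.784. With the T cell markers, Nr1h3 had the r farthest from 0, -0.328 (exact permutation p = 0.434, adjusted p = 0.978), with a rho of -0.238 (exact permutation p = 0.582, adjusted p = 0.997). Among deviations from the group means, r with the T cell markers was -0.576 for Abcg1, -0.499 for Mylip, -0.349 for Abca1 and -0.313 for Nr1h3. For the other genes it was -0.121 for Srebf1, 0.0694 for Lpcat3, 0.152 for Nr1h2 and 0.245 for Apoe. The values of r among deviations were not tested.

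**Figure D4:**
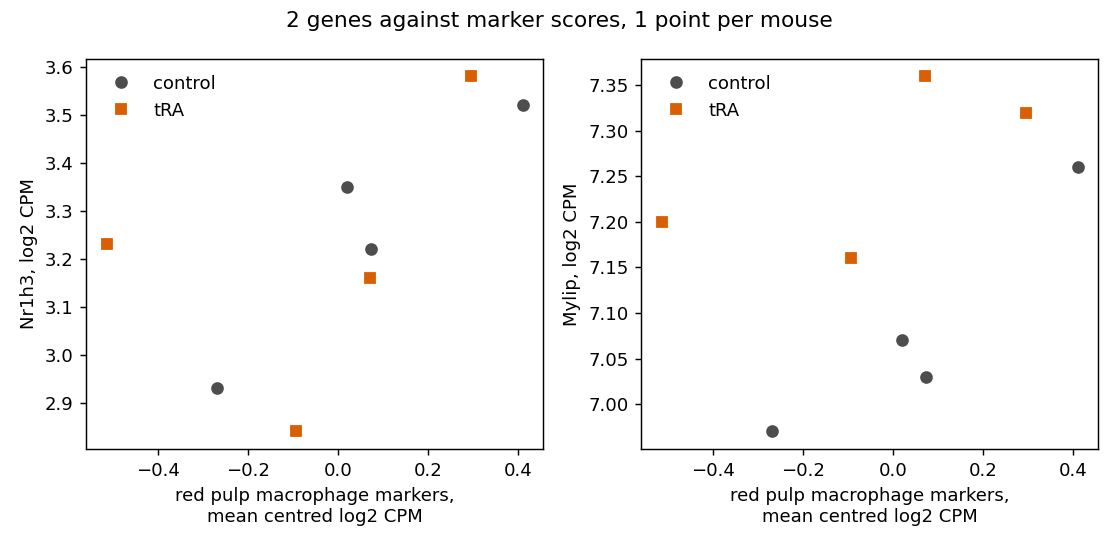
Log2 CPM (y axis) of Nr1h3 and of Mylip against the red pulp macrophage marker score (x axis, mean centred log2 CPM), with 1 point per mouse. Nr1h3 spans 2.84 to 3.58 with both groups mixed, and Mylip spans 6.97 to 7.36 with the highest point that of tRA mouse 2.

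The LXR-RXR pair binds a direct repeat of the letters AGGTCA with 4 bases between the copies, and the RAR-RXR pair binds such repeats with 5, 2 or 1 base between them. RefSeq promoters of GRCm38.p6, reaching from 250 bases before to 50 bases after the start, were on hand for 7 of the 8 genes in 12 windows, Abcg1 not among them. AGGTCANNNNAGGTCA was searched on both strands, with each copy written AGGTCA, its variant GGGTCA or its variant AGTTCA. It was found in 0 of the 12 windows and in 0.0639% of all 32851 promoters. With at most 1 mismatch per copy, counted against AGGTCA alone and not its variants, it was found in 0 of 12 and in 1.75%. The repeats with 5, 2 and 1 base between the copies were also found in 0 of the 12, and with at most 1 mismatch per copy in 1.64%, 1.94% and 2.4% of all promoters. This says only that these letters are not in these windows.

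After that search had given no match, the window with the fewest mismatches over both copies was located for each promoter, again with 4 bases between them. Counted against AGGTCA alone, it had 3 mismatches in 1 promoter each of Abca1 and Srebf1, and 4 or 5 in the others. By the same count, 21.9% of all promoters hold a window with 3 or fewer. The first copy in both genes, GGGTTA, is nearer to the variant GGGTCA than to AGGTCA, so the count depends on that choice. In Abca1 the window reads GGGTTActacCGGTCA on the strand opposite to the gene, from 67 to 52 bases before the start (chr4:53159947-53159962). In Srebf1 it reads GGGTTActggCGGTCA, also on the opposite strand, from 182 to 167 bases before an internal start (chr11:60210638-60210653). Both copies of the repeat have the same letters in these genes, and 2 of the 4 bases between them differ. A match of this kind is a description of the letters, and binding was not measured.

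These promoters are shown because they hold the nearest windows, in Abca1, which had the highest estimate of the 8, and in Srebf1, which had the estimate closest to 0. Each is written 5′ to 3′ on the gene's strand, up to the start and without annotated exon, with the copies of the repeat in capitals. The stretch of Abca1 is chr4:53159896-53160145 (minus strand, 250 bases, 61.6% GC), before the gene, and that of Srebf1 chr11:60210472-60210721 (minus strand, 250 bases, 70.8% GC), within an intron of the longer transcripts. The estimate of Srebf1 comes from counts over the whole gene, so transcripts from this internal start were not told apart from the longer ones.
Abca1: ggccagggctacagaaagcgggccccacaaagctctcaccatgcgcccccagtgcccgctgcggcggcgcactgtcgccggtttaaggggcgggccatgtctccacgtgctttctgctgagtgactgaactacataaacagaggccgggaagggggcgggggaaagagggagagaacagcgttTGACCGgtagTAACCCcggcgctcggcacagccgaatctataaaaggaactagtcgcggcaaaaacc
Srebf1: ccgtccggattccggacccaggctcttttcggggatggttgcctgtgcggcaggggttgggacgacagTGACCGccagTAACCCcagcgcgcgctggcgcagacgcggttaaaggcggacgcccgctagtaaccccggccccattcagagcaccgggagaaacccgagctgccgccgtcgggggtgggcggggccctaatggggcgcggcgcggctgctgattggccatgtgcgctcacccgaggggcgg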

How the data were processed

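Raw counts per Ensembl gene for 8 mice were deposited by the authors, without normalization. The submitters' processing notes name GRCm38, STAR 2.5.2b, featureCounts 1.5.1 and DESeq2 1.26.0, whereas the methods of the study name ea-utils and Btrim, Bowtie2 and Tophat2, and HTSeq, and neither settles which tools made the counts or whether strand was used. A table of the authors' DESeq2 comparison, with fold changes and p-values, was also deposited and was not used.

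Symbols, positions and exon lengths came from GENCODE M21, which holds 51633 of the 51826 gene identifiers. Analysis of the counts used edgeR 4.0.16 in R 4.3.3 (filterByExpr with a minimum count of 10, TMM, quasi-likelihood test, Benjamini-Hochberg FDR under 0.1), with all 8 libraries in 1 fit, and in DESeq2 1.42.0 as an alternative. The SE is the absolute log2 fold change over the square root of F, and intervals use the t distribution with the degrees of freedom of the fit. Log2 CPM used a prior count of 2. Correlations and figures were made in Python 3.11.15 with scipy 1.17.1 and matplotlib 3.10.9. The fit was tested on simulated data.

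The 8 genes and the 16 lists beside them were chosen with earlier results of these data known, and 1 gene planned with the 8, with results that rest on it, and some genes planned for the lists are not reported here. Named are the 8 genes, and from each list genes among the 4 with the largest absolute log2 fold change and the 1 with the highest CPM. Genes named outside this rule are Rxra, Rxrb, Rxrg, Hdac3, Tbl1xr1, Fasn, Acaca and those too low to be tested, for their role in the pathway. Gm13783, Emg1 and Rai1 are named for exons shared with the 8 genes, and Cxcr2, Mmp8 and Mmp9 for estimates unlike those of the other neutrophil genes. All of these were chosen after the values were seen. The alternatives were DESeq2, RLE normalization, total count alone, keeping every gene with a count, a minimum of 10 counts in each library, the replicate number as a block, the longest transcript as length, and each mouse left out in turn.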

Additional observations from a re-analysis of the deposited data

How the results depend on the processing

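The log2 fold changes of Abca1, Abcg1, Mylip and Lpcat3 were positive under each of the 14 alternatives, that of Abca1 between 0.17 and 0.43, Abcg1 between 0.11 and 0.24, Mylip between 0.14 and 0.24 and Lpcat3 between 0.082 and 0.16. The estimates of Nr1h3 and Apoe were negative under 12 and 13 of the 14, that of Nr1h2 under 14, and that of Srebf1 was positive under 10 and negative under 4. Nr1h3 was positive without tRA replicate 4, at 0.066, and without control replicate 2, at 0.05, and Apoe without control replicate 3, at 0.0031. The median log2 fold changes of the T cell and neutrophil genes and of the SREBP2 list kept their sign under each of the 14, from 0.08 to 0.19, -0.89 to -0.49 and -0.10 to -0.035. For the receptors degraded by IDOL the value also kept its sign, from 0.083 to 0.23, but in the main fit it was that of Lrp8 alone. The other list medians changed sign under at least 1, and ran from -0.015 to 0.12 for LXR partners and coregulators, -0.079 to 0.061 for other LXR targets, -0.056 to 0.015 for oxysterol genes, -0.05 to 0.065 for retinoic acid targets, -0.25 to 0.048 for red pulp and -0.043 to 0.37 for marginal zone macrophages, -0.14 to 0.06 for monocytes, -0.20 to 0.0012 for dendritic cells, -0.11 to 0.062 for NK cells, -0.023 to 0.071 for B cells, -0.16 to 0.85 for erythroid and -0.27 to 0.031 for stromal and endothelial genes. The cause was not tested.

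Over all genes, edgeR gave 0 genes with an FDR under 0.1, DESeq2 gave 27, edgeR with no filter on low counts 6, and leaving out 1 mouse between 0 and 3, the 3 without tRA replicate 4. The lists beside the 8 genes held 0, DESeq2 gave 3 in them, no filter on low counts 3, and leaving out 1 mouse between 0 and 3, the 3 again without tRA replicate 4. The cause was not tested. Of the 8 genes, 0 had an FDR under 0.1 under any alternative. With the longest transcript as length, 0 of the 8 genes changed rank in control mice and 2 in tRA mice, and leaving out 1 mouse moved between 0 and 2 in control and between 0 and 2 in tRA mice. Of the 16 correlations with markers, 0 passed under RLE normalization, total count alone or with any 1 mouse left out, the alternatives run for them.

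With the replicate block, 0 genes had an FDR under 0.1, and the log2 fold change of Abca1 was 0.30, while the median of the stromal and endothelial genes moved from 0.0017 to -0.21. The labels do not say whether the replicate numbers pair the mice. Deviations of same-numbered mice from their group means had correlations of 0.157, -0.0229, -0.014 and 0.259. These were not set against mice of different numbers, so they cannot decide whether the mice were paired. The 95% intervals of the 8 genes, from 4 mice per group, include counting error, which depth limits. Counting error alone gives a coefficient of variation of 5.56% for Nr1h3 among control mice, against 16.8% observed, and of 1.67% for Srebf1 among tRA mice, against 2.77%.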
